A study of Rattus norvegicus with 12 samples.

Results

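To clarify which circular RNAs (circRNAs) dominated the libraries of the paraventricular nucleus of the hypothalamus (PVN), the read counts of 21914 circRNAs analysed here were ranked by abundance. Each count was divided by the total of its library and scaled to a common total of 1000000 (CPM), and the values were averaged over 12 libraries. The circRNAs in the first 100 places by mean CPM were taken, 1 of them was left out, and 99 remained as members, which is 0.452% of the circRNAs in the table. The level itself chose the members, so their levels, shares and ranks are given as a description and were not tested.

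The libraries came from male Sprague–Dawley rats that were 7 weeks old at purchase and were adapted for 1 week. The libraries fell into 4 groups of 3. Control rats (NC) had no operation, and rats with hepatectomy trauma (HT) lost about 20% of the left lobe of the liver under isoflurane. HT+EA rats had the same operation and electroacupuncture at Zusanli and Sanyinjiao for 30 min, at 2 and 15 Hz, given 24 h before and again right after surgery. HT+SEA rats had the operation and the needles at those points without current. All groups were restrained in the same way, and tissue was taken 24 h after the last treatment. The methods describe no group with the incision alone, so HT differs from NC by the whole operation. The nucleus is mixed tissue, and a lower level in bulk RNA can be fewer cells of a type or less RNA per cell, which cannot be told apart. The methods give 12 rats in all. They add that brain samples were of the same batch but not of the same animal, because a rat provides limited material. The labels do not tie a library to a rat, so the p-values measure the spread between these libraries, which may in part be technical.

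A circRNA is a closed loop that forms when the splicing machinery joins a downstream splice donor to an upstream acceptor of the same transcript. Because a loop has no free end, circRNAs resist the exonucleases that degrade linear RNA, and many of them accumulate in neurons. Some carry sites for microRNAs, and the study placed circRNAs of the PVN in networks with microRNAs and mRNAs. The PVN holds the neurons that release corticotropin-releasing hormone and so start the hormonal response to stress. The table names each circRNA by a number only. Host genes, positions, lengths and sequences were not analysed here, so the labelled tissue could not be checked against marker genes, and the order of levels is an order of read counts that was not corrected for length.

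The libraries held between 134903 (HT 3) and 360524 (HT+EA 2) circRNA counts, with a median of 220991. The chi-square of the 12 replicate pairs, over all circRNAs listed in either library, was 2.68 to 3.59 per degree of freedom. No count of 1 is in the table, and low counts listed as 0 can raise this value. It therefore cannot show whether the pairs differed beyond counting error, or whether a pair was 1 library counted again. The counts behind the members were deep: between 30334 and 78378 counts per library, and between 123 and 6143 counts for a single member in a single library. None of the 99 members was listed at 0 in any library, and a 0 also lowers the mean that chose them.

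The members held 22.01% ± 0.376 (SD, n = 12) of the counts, between 21.35% in HT+SEA 1 and 22.78% in NC 3. The share was 22.1% ± 0.614 in NC, 22.1% ± 0.293 in HT, 21.9% ± 0.184 in HT+EA and 21.8% ± 0.415 in HT+SEA (SD, n = 3 each). The groups overlapped, and their means lay closer together than the libraries of NC alone. The first 10 members held between 5.58% and 6.32% of the counts of a library, and the first 50 held between 14.96% and 15.88%. By comparison, the next 100 circRNAs held 9.02% ± 0.166 (SD, n = 12). Between 558 and 629 circRNAs were needed to reach 50% of the counts of a library.

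**Figure D1:**
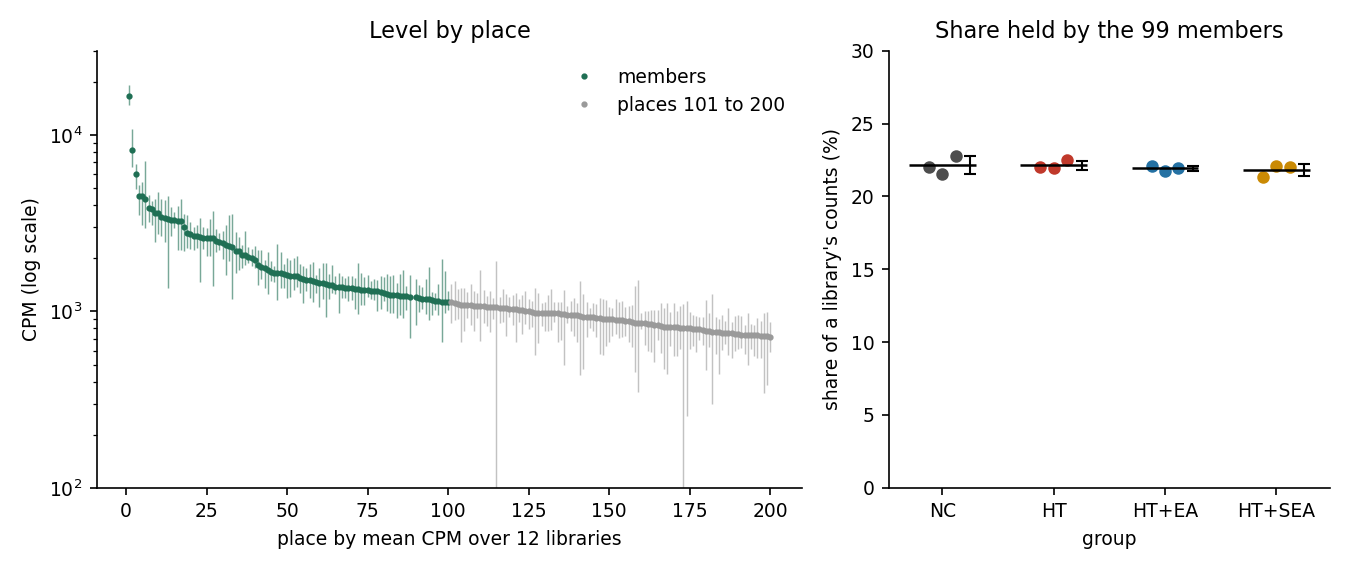
Left, mean CPM over 12 libraries (points, log scale) against place for the 99 members and for places 101 to 200, with lines from the lowest to the highest library (lines of circRNAs listed at 0 are cut at the lower edge). Right, share of the counts of each library held by the members (points), with the mean (bar) and SD (whiskers) of each group (n = 3), where all 12 libraries sit between 21.35% and 22.78%.

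At the top of the list, novel_circ_0039775 stood apart. Its level was 17734, 15900 and 19149 CPM in NC, 17749, 15602 and 14685 CPM in HT, 18161, 17039 and 16851 CPM in HT+EA, and 15616, 15208 and 16737 CPM in HT+SEA. It held the first rank in every library, and its lowest library was still 1.35 times the highest library of the second circRNA. Every HT+EA library was above every HT+SEA library, with HT+EA 3 just above HT+SEA 3, and the groups overlapped in the other comparisons. None of its 4 comparisons was called, and the 95% interval of HT+EA against HT+SEA was −0.04 to 0.32 on the log2 scale. Over the 12 libraries its mean was 16703 ± 1340 CPM (SD), 2.04 times that of the second circRNA and 14.8 times that of the last member.

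The second, novel_circ_0034471, was measured at 8170 ± 1244 CPM (SD, n = 12) and held the second rank in every library. It was highest in NC 3 (10872 CPM) and lowest in HT+SEA 1 (6601 CPM), and the other NC libraries, at 7329 and 6857 CPM, were among the lowest. The third, novel_circ_0010853, was at 6038 ± 485 CPM and held the third rank in 10 of 12 libraries, the fourth in HT 1 and the fifth in HT+EA 2. These were the only members among the first 10 that stayed within the first 10 ranks of every library.

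From the fourth place on, neighbours in the order were closer than their spread. The means of novel_circ_0019548, novel_circ_0016268 and novel_circ_0020672 were 4529 ± 511, 4502 ± 772 and 4322 ± 1097 CPM (SD, n = 12), and their ranks ran from 4 to 13, 3 to 15 and 3 to 16. The level of novel_circ_0020672 was 7137 CPM in HT 1, where it held the third rank, and 2987 CPM in HT+EA 2. The next members, novel_circ_0034129, novel_circ_0014383, novel_circ_0025280 and novel_circ_0034467, had means of 3870 ± 412, 3796 ± 365, 3612 ± 538 and 3608 ± 516 CPM. Their worst ranks were 16, 17, 25 and 23, so none of these 4 was among the first 10 in every library.

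At the lower end, the limit at place 100 cut through a flat part of the order. The last members, novel_circ_0017513, novel_circ_0037736 and novel_circ_0036574, had means of 1132, 1130 and 1128 CPM. Just outside, novel_circ_0032615, novel_circ_0004986 and novel_circ_0021524 had means of 1125, 1123 and 1107 CPM, and they were among the first 100 ranks in 5, 6 and 4 libraries. The last 3 members were among the first 100 in 4, 3 and 6 libraries, so membership at this edge is not separated by the level.

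Ranks spanned fewer places at the top of the list than at the bottom. All 33 members in places 1 to 33 were within the first 100 ranks of every library, 28 of the 33 in places 34 to 66 were, and 6 of the 33 in places 67 to 100 were, which made 67 in all. The median span between the best and the worst rank of a member was 17, 36 and 61 ranks in these 3 classes. Levels were no steadier at the top, with a median coefficient of variation over the libraries of 12.8%, 11.7% and 11.8% in the classes. Counting error alone gives a median of 3.8%, 5.4% and 6.14%, so it makes up less of the variation at the top. Of the first 25 members, 14 stayed within 25 ranks in every library, and of the first 50, 35 stayed within 50 ranks. Within 150 ranks, 93 members stayed inside in every library, and within 200 ranks 97 did. The 2 exceptions were novel_circ_0017513, which was at rank 38 in HT+SEA 2 and at rank 220 in HT+SEA 3, and novel_circ_0028702, which was at rank 53 in NC 1 and at rank 219 in NC 3. The latter was named because it was an exception, after its values were seen.

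**Figure D2:**
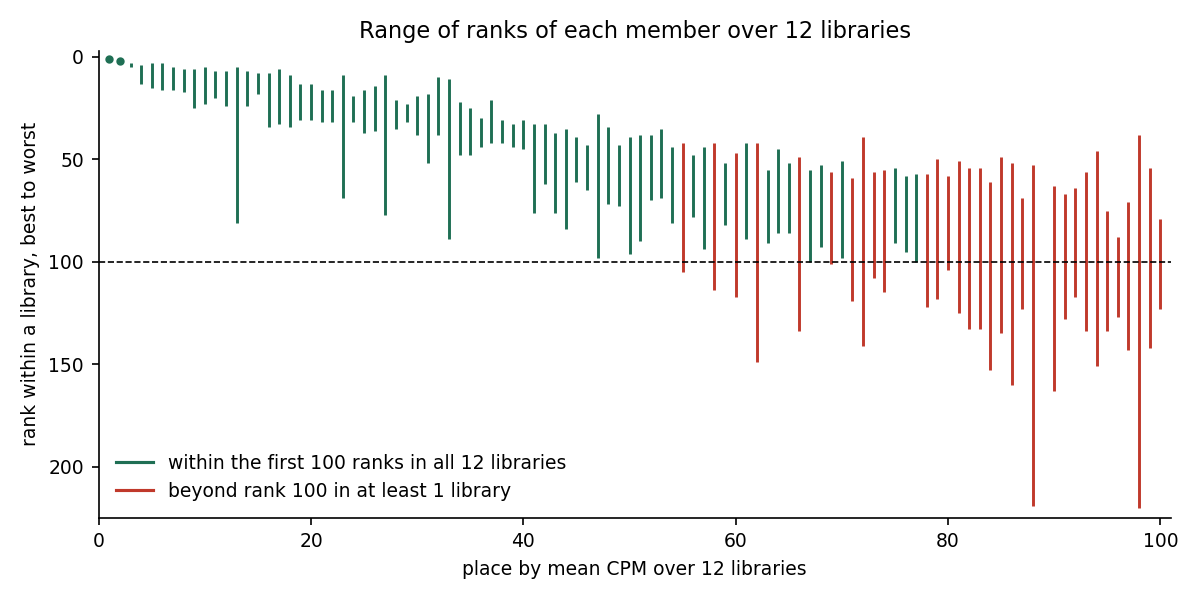
Range of ranks of each member over 12 libraries (vertical lines, points where the rank was constant) against its place by mean CPM, with the dashed line at rank 100 and no line at the place that was left out. The 67 members in green stayed within the first 100 ranks of every library, and the worst rank of any member was 220.

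In places 1 to 33, 4 members had far wider ranges than their neighbours, and the same library was lowest in 3 of them. The level of novel_circ_0004584 was 3582, 3171 and 1356 CPM in NC, 4260, 3064 and 4537 CPM in HT, 4196, 1967 and 2763 CPM in HT+EA, and 3027, 4270 and 3974 CPM in HT+SEA. Its rank ran from 5 in HT 3 to 81 in NC 3, and all groups overlapped. Likewise, novel_circ_0012401 was at 1471 CPM in NC 3 against 2344 to 3372 CPM elsewhere, and novel_circ_0004128 was at 1398 CPM in NC 3 against 2078 to 3693 CPM elsewhere. The fourth, novel_circ_0021099, was at 1183 CPM in HT+SEA 3 and at 3573 CPM in HT 2. The pair novel_circ_0012401 and novel_circ_0004128 was named after the values were seen.

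To test the order on libraries that had not been used to set it, the choice was repeated with each library left out. Between 86 and 92 of the 99 circRNAs chosen from the other 11 libraries were among the first 100 of the library left out. In HT 3, HT+EA 1, HT+EA 3 and HT+SEA 3, a circRNA chosen from the other 11 libraries, novel_circ_0018587, was listed at 0. It is no member, and was named after its values were seen. When a whole group was left out, 93 of 99 were among the first 100 by the mean of NC, 93 for HT, 90 for HT+EA and 92 for HT+SEA. Over all libraries, 145 circRNAs entered the first 100 of at least 1 library, and 46 of them were not members.

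Members differed between libraries by more than counting error. The coefficient of variation (CV) of the CPM over the 12 libraries had a median of 12.1%, from 5.57% to 38.2%, where counting alone gives a median of 5.40%. The chi-square per degree of freedom was above 1 in 98 members, with novel_circ_0029880 at 0.993 as the exception, which was named for this reason. The highest library exceeded the lowest by a median of 1.51-fold, and in 90 members by less than 2-fold. The biological CV that edgeR fitted within groups had a median of 15.3% in the members, 16.5% in places 101 to 200 and 29.5% in all circRNAs tested. These fitted values are moderated towards those of other circRNAs of like level, so they are not the variation of the members alone: in the members their median exceeds that of the CV over all libraries.

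The least variable members were novel_circ_0036248, novel_circ_0031180 and novel_circ_0036452, with a CV of 5.57%, 5.61% and 6.06%. The level of novel_circ_0036248 lay between 1471 CPM (HT 1) and 1808 CPM (HT 2), and its group means were 1640, 1637, 1653 and 1688 CPM in NC, HT, HT+EA and HT+SEA. Its chi-square per degree of freedom was 1.14, close to what counting gives. The most variable was novel_circ_0017513, with a CV of 38.2%, followed by novel_circ_0004584 with 29.5% and novel_circ_0021099 with 27.6%. The level of novel_circ_0017513 was 1267, 1988 and 674 CPM in the replicates of HT+SEA, so its extremes lay within 1 group.

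**Figure D3:**
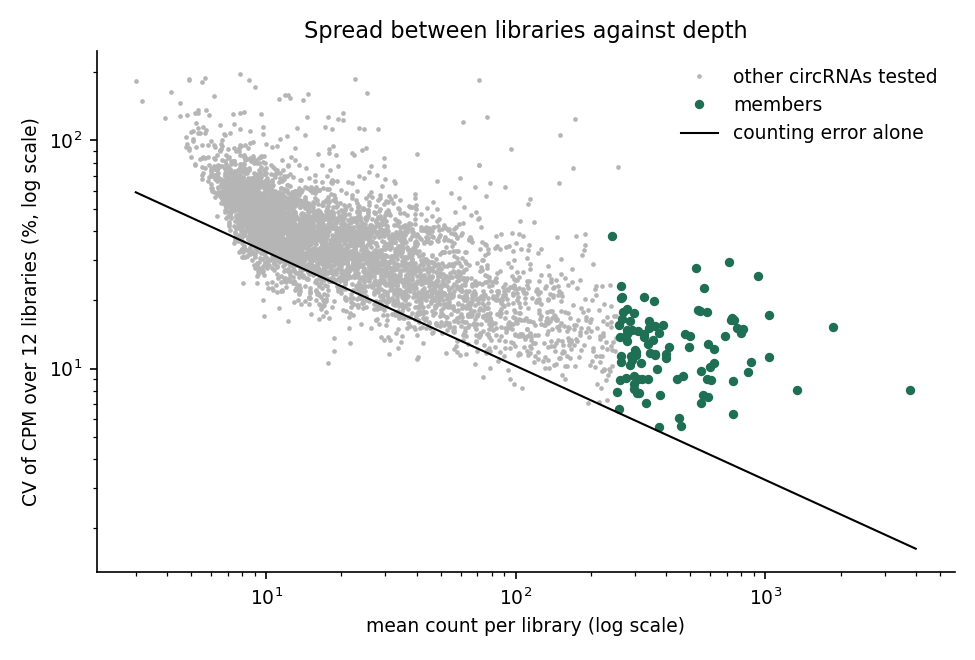
CV of the CPM over 12 libraries against the mean count per library (both log scales) for the 99 members (green) and the other circRNAs tested (grey), with the line that counting error alone would give. The CV of the members lies between 5.57% and 38.2%, and most members sit above the line.

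Single libraries accounted for many of the extremes. NC 3 was the highest library for 27 members and the lowest for 13, and HT 1 was the highest for 14 and the lowest for 18. HT 3, the shallowest library, was the highest for 14 and the lowest for 5. The median distance of a member from its own median over libraries was 0.197 on the log2 scale in NC 3 and 0.147 in HT 1, against a median of 0.1 over the libraries. NC 3 (0.238) and HT 1 (0.168) were also the farthest in places 101 to 200. Over all circRNAs tested, HT 3 was the farthest (0.38), followed by NC 3 (0.359) and HT 1 (0.348). The distance of NC 3 and HT 1 was therefore not particular to the members.

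Group means of the members were close. The ratio of the highest to the lowest of the 4 group means had a median of 1.17. It was below 1.25 in 80 members and below 1.5 in all 99, with the largest, 1.46, in novel_circ_0004584. The highest group mean was that of HT in 35 members, NC in 29, HT+EA in 18 and HT+SEA in 17, where the shares over all circRNAs tested were 27.5%, 22.8%, 24.9% and 24.8%. The lowest was that of HT+SEA in 33, HT+EA in 30, NC in 18 and HT in 18, where the shares over all lay between 23.7% and 26.6%. Differences were then tested with the quasi-likelihood test of edgeR, fitted on all 4838 circRNAs that passed the filter on low counts, which included all 99 members. Fold changes are on the log2 scale with the standard error (SE) and 95% interval, and adjusted p-values are Benjamini-Hochberg values over all circRNAs tested.

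No member passed after adjustment in any of the 4 comparisons or in the test of any difference among the 4 groups, and 0.0% of all circRNAs tested did. DESeq2 and limma-voom gave 0 as well. A member is called here where its unadjusted p was below 0.05, which held for 16 of 99 members in at least 1 comparison, where it held for 11.1% of all circRNAs tested, and for 83 members in none. DESeq2 called 5 members for HT against NC (2.23% of all circRNAs), 1 for HT+EA (2.96% of all) and 3 for HT+SEA (2.15% of all) against HT, and 5 between HT+EA and HT+SEA (2.46% of all). With limma-voom the counts were 7, 1, 4 and 8, where it called 4.05%, 5.42%, 2.89% and 5.06% of all. The median SE was 0.143 in the members, 0.173 to 0.174 in places 101 to 200 and 0.442 to 0.454 in all circRNAs tested. The 95% interval lay within a 2-fold difference in 98 of 99 members for HT against NC, where 29.8% of all circRNAs tested met this. It did so in 97 for HT+EA against HT (29.4% of all), in 99 for HT+SEA against HT (29.9% of all) and in 97 for HT+EA against HT+SEA (30.7% of all). In places 101 to 200 the interval lay within 2-fold in 92, 93, 94 and 94 of 100 circRNAs, in the same order of comparisons. Narrow intervals were therefore not particular to the members. The 5 of 396 member intervals that reached 2-fold belonged to novel_circ_0004584 and novel_circ_0017513.

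**Figure D4:**
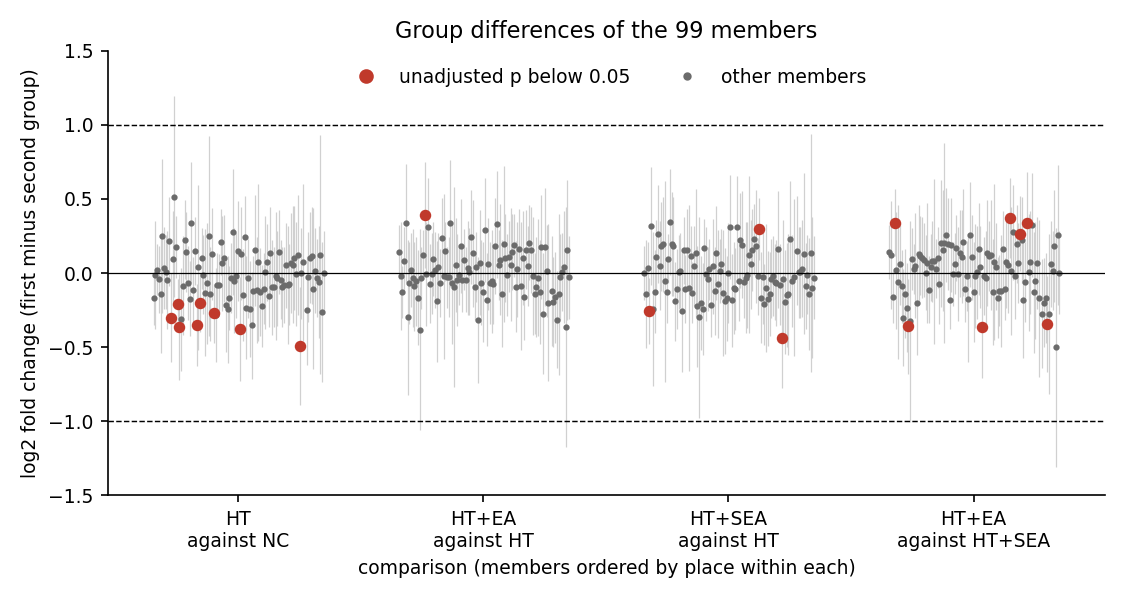
Log2 fold changes of the 99 members in the 4 comparisons (points, ordered by place within each comparison) with 95% intervals (grey lines), where red points have an unadjusted p below 0.05 and dashed lines mark a 2-fold difference. The red points lie between 0.2 and 0.494 in absolute value, and 391 of 396 intervals stay within 2-fold.

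To assess the effect of surgery, HT was compared with NC. In HT, 0 members were called higher and 8 lower, which is 8.08% of the members, where 3.41% of all circRNAs tested were called, 1.26% higher and 2.15% lower. In places 101 to 200, 3 of 100 were called. The median fold change was −0.04 in the members and −0.03 in all circRNAs tested (log2). The libraries of the groups did not overlap in 3 members higher and 5 lower in HT, against 9.36% of all circRNAs tested (4.98% higher and 4.38% lower). The count depended on the libraries and the scaling. It was 5 without HT 3, with 1 higher and 4 lower, and 10 without NC 2 or without HT 2, with 1 higher and 9 lower each. It was 6 without NC 3, with 3 higher and 3 lower, and 9 without HT 1, with 2 higher and 7 lower. With median-ratio factors or totals in place of TMM it was 6, with 1 higher and 5 lower. Here and in the comparisons below, the share of all circRNAs called is not given for such fits. Leaving out a library also changed the set tested, to between 5373 and 5554 circRNAs. These counts therefore do not show whether members shifted more than other circRNAs.

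The smallest p among members lower in HT was that of novel_circ_0029552. Its level was 2372, 2186 and 2338 CPM in NC and 1847, 1922 and 2083 CPM in HT, and every HT library was below every NC library. The fold change was −0.27 (SE 0.09, 95% interval −0.47 to −0.08, adjusted p = 0.997, edgeR). HT+EA had 1977, 1933 and 1760 CPM, and HT+SEA had 2186, 2078 and 2226 CPM. It was 1 of the 2 members called in the test of any difference among the groups, together with novel_circ_0019548, where 2.48% of all circRNAs tested were called. The count of 2 was 7 without HT 1, 6 without NC 2 or NC 3, 5 without HT+EA 3, 4 without HT 2 or HT 3, and 1 without NC 1 or HT+SEA 2.

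The largest difference among the calls was that of novel_circ_0022464, with 1357, 1275 and 1710 CPM in NC and 1100, 1138 and 912 CPM in HT. All HT libraries lay below all NC libraries, and the fold change was −0.49 (SE 0.18, 95% interval −0.89 to −0.10, adjusted p = 0.997, edgeR). HT+EA had 956, 1184 and 1358 CPM, and HT+SEA had 1438, 1149 and 1064 CPM, and both groups overlapped with NC and HT. Of the 44 circRNAs that the study made nodes of its PVN network, this and novel_circ_0016268 were the 2 members. The study chose the nodes on these libraries, so the list is not independent evidence. The other node, novel_circ_0016268, was at 3392, 4628 and 4752 CPM in NC, 3078, 5090 and 3684 CPM in HT, 4126, 5165 and 5434 CPM in HT+EA and 4457, 5030 and 5188 CPM in HT+SEA. Its groups overlapped between NC and HT and between HT and HT+EA, and its fold changes were −0.14 (95% interval −0.54 to 0.26) and 0.34 (95% interval −0.06 to 0.73).

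The other 6 members lower in HT were novel_circ_0003004, novel_circ_0009645, novel_circ_0037442, novel_circ_0024723, novel_circ_0025813 and novel_circ_0025810. Their fold changes ran from −0.20 to −0.38, and the libraries of HT and NC overlapped in each of the 6. No member higher in HT was called. The smallest p in that direction was that of novel_circ_0021874, with 1756, 1809 and 1860 CPM in NC and 2348, 2079 and 1994 CPM in HT. Its libraries did not overlap, and the fold change was 0.21 (SE 0.10, 95% interval −0.01 to 0.43, adjusted p = 0.997, edgeR). It was called with median-ratio factors, with totals and without HT 3, where the fold change was 0.23, 0.23 and 0.27.

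To assess electroacupuncture after surgery, HT+EA was compared with HT, which shares its HT libraries with the comparison above. In HT+EA, 1 member, novel_circ_0037442, was called higher and 0 lower (1.01%), where 4.77% of all circRNAs tested were called, 2.58% higher and 2.19% lower. The median fold change was −0.01 in the members and 0.02 in all tested (log2). Libraries did not overlap in 1 member higher and 7 lower in HT+EA, against 11.3% of all circRNAs tested (5.21% higher and 6.06% lower). The level of novel_circ_0037442 was 3445, 3322 and 3462 CPM in NC, 3345, 2543 and 2231 CPM in HT, 3842, 2824 and 3840 CPM in HT+EA, and 3438, 2822 and 3953 CPM in HT+SEA. HT 2 and HT 3 were lowest, while HT 1 was level with NC. The fold change was 0.39 for HT+EA against HT (SE 0.16, 95% interval 0.04 to 0.75, adjusted p = 0.999) and −0.36 for HT against NC (SE 0.16, 95% interval −0.72 to −0.01, adjusted p = 0.997, edgeR). Without HT 2, HT 3, HT+EA 1 or HT+EA 3, the fold change of HT+EA against HT was 0.36, 0.25, 0.33 and 0.32 and the call was lost each time.

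The count of 1 member for HT+EA against HT also changed with single libraries. It was 0 without HT 3, 2 without NC 3, HT+EA 3 or HT+SEA 2, 6 without HT 1 or HT+EA 1, and 8 without HT 2. The smallest p among members lower in HT+EA was that of novel_circ_0031033, which was not called. Its level was 1035, 1312 and 1460 CPM in HT and 1007, 971 and 1016 CPM in HT+EA, so every HT+EA library was below every HT library. The fold change was −0.32 (SE 0.15, 95% interval −0.64 to 0.01, adjusted p = 0.999, edgeR). It was called without HT 1, with a fold change of −0.44, and without HT+SEA 2, with −0.31.

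Sham electroacupuncture was compared with HT in the same way, again with the same HT libraries. In HT+SEA, 1 member was called higher and 2 lower (3.03%), where 3.29% of all circRNAs tested were called, 1.86% higher and 1.43% lower. Without NC 3 the count was 7, and without HT 2 or HT 3 it was 6. Libraries did not overlap in 3 members higher and 8 lower in HT+SEA, against 9.53% of all circRNAs tested (4.61% higher and 4.92% lower). The level of novel_circ_0031823 was 1226, 1195 and 1282 CPM in HT and 1523, 1549 and 1422 CPM in HT+SEA, with a fold change of 0.30 (SE 0.10, 95% interval 0.09 to 0.51, adjusted p = 0.999, edgeR). Its NC libraries, at 1308 to 1379 CPM, and its HT+EA libraries, at 1337 to 1399 CPM, lay between those of HT and HT+SEA. Without a filter on low counts it was 0.31 and the call was lost. The level of novel_circ_0039771 was 1624, 1429 and 1164 CPM in HT and 1000, 1048 and 1048 CPM in HT+SEA, with a fold change of −0.44 (SE 0.16, 95% interval −0.78 to −0.09, adjusted p = 0.999, edgeR). Without HT 1 its fold change was −0.33 and the call was lost. The other lower member was novel_circ_0019548.

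To separate current from needling, HT+EA was compared with HT+SEA. In HT+EA, 4 members were called higher and 3 lower (7.07%), where 3.89% of all circRNAs tested were called, 1.74% higher and 2.15% lower, and 6 of the 100 circRNAs in places 101 to 200 were. Libraries did not overlap in 10 members higher and 9 lower, which is 19.2%, against 11.8% of all circRNAs tested (5.6% higher and 6.16% lower) and 21.0% in places 101 to 200. The median fold change was 0.04 in the members and 0.00 in all tested (log2). The count was 2 without HT+EA 1, HT+EA 2 or HT+SEA 2 and 4 without HT+SEA 1.

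The smallest p was that of novel_circ_0019548, the fourth member by level. Its level was 5008, 4957 and 4620 CPM in HT+EA and 4345, 3498 and 3767 CPM in HT+SEA, and every HT+EA library was above every HT+SEA library. The fold change was 0.34 (SE 0.10, 95% interval 0.11 to 0.57, adjusted p = 1.0, edgeR). NC had 5232, 4368 and 4533 CPM and HT had 4707, 4965 and 4344 CPM, and HT+SEA against HT gave −0.26 (SE 0.10, 95% interval −0.48 to −0.03, adjusted p = 0.999). So HT+SEA had the lower mean in both comparisons. However, HT+SEA 1 (4345 CPM) was just above HT 3 (4344 CPM), so HT+SEA and HT overlapped, and NC, HT and HT+EA overlapped as well. In the opposite direction, novel_circ_0031378 was at 2914, 2782 and 3304 CPM in HT+EA and 4112, 3909 and 3616 CPM in HT+SEA. The fold change was −0.36 (SE 0.15, 95% interval −0.68 to −0.04, adjusted p = 1.0, edgeR), and its HT libraries ran from 2479 to 4262 CPM and spanned both groups. Without HT+EA 1, HT+EA 2, HT+SEA 1 or HT+SEA 2 the fold change was −0.32, −0.32, −0.30 and −0.36 and the call was lost each time. The other 5 calls were novel_circ_0032425, novel_circ_0007837 and novel_circ_0039771, which were higher in HT+EA, and novel_circ_0008495 and novel_circ_0031033, which were lower.

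**Figure D5:**
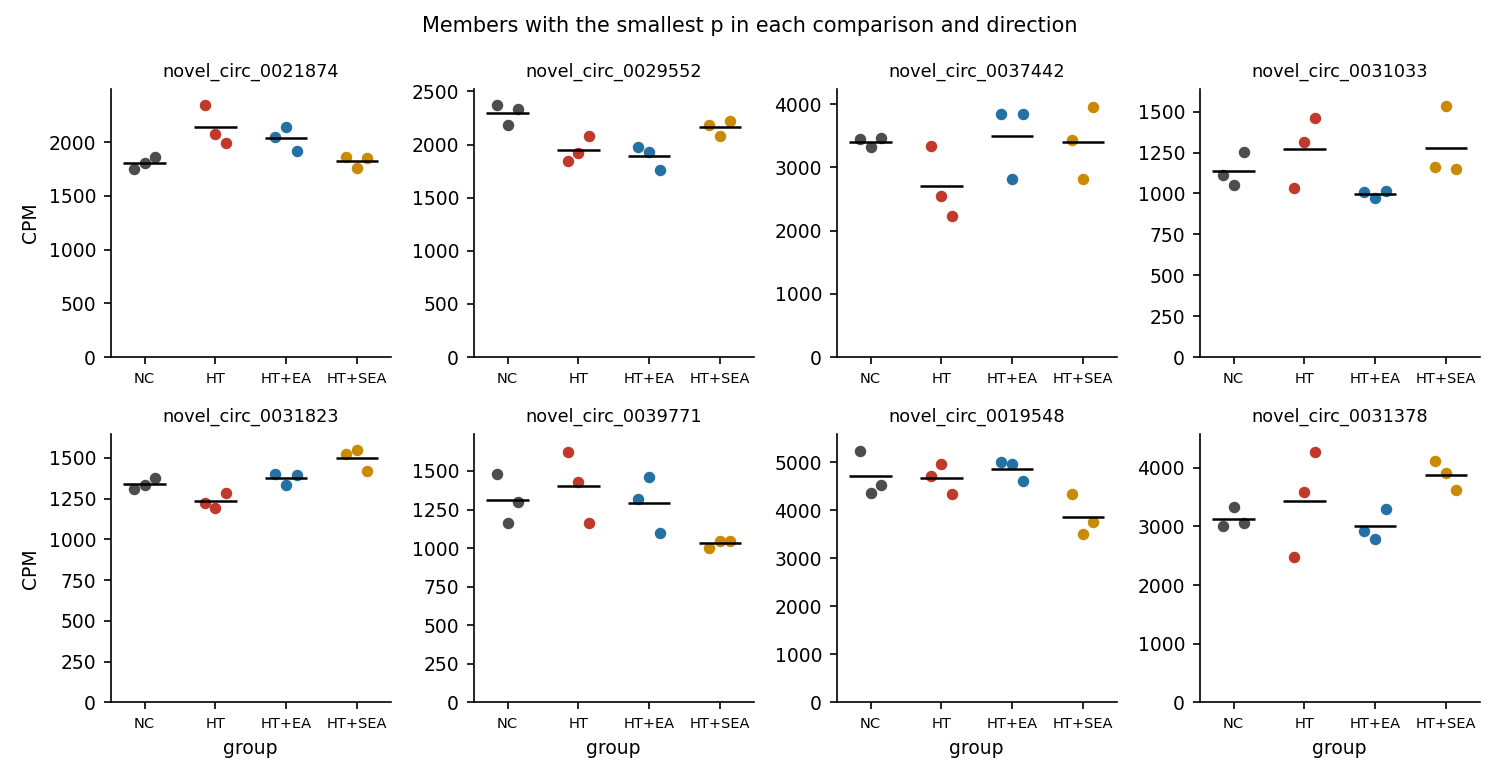
CPM in each library (points) with the group mean (bar, n = 3) for the 8 members with the smallest p in each comparison and direction. In novel_circ_0019548 the HT+SEA libraries (3498 to 4345 CPM) sit below the HT+EA libraries (4620 to 5008 CPM), and in novel_circ_0029552 the HT libraries (1847 to 2083 CPM) sit below the NC libraries (2186 to 2372 CPM).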

How the data were processed

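The deposited table holds raw read counts per circRNA for 12 PVN libraries, per the file headers. The authors prepared strand-specific libraries and named HISAT2 and featureCounts. Which tool called the circRNAs is not given in the sources used here, and neither is what a count covers. The methods name a rat genome build and the submitters' processing notes a human one, and no coordinate is used. Another 12 columns (TPM), whose names matched no label, were not used. The table holds no count of 1 (the lowest above 0 is 2). Levels are counts divided by the column total, times 1000000. Tests used edgeR 4.0.16 (R 4.3.3): filterByExpr (minimum count 10, minimum total 15), TMM, 1 quasi-likelihood fit of 4 groups, two-sided. SE is the fold change divided by the root of F, and intervals are 95% t intervals. Counting intervals would cover counting error only. The fit was tested on simulated data. DESeq2 1.42.0 and limma-voom 3.58.1, other scalings, no filter, fewer groups, a replicate block and leaving out each library were alternatives. Named circRNAs were the 10 highest, 3 on either side of the limit, 3 lowest and 3 highest CV, the smallest p per comparison and direction, and nodes of the study's network. The members and lists were chosen with earlier results of these data known. One circRNA is not reported here.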

Additional observations from a re-analysis of the deposited data

How the results depend on the processing

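At an unadjusted p below 0.05, the number of members called for HT against NC was 8, and it was 5 with DESeq2, 13 without a filter, 3 when HT and NC alone were fitted, and 5 to 10 with 1 library left out. For HT+EA against HT it was 1, and 10 without a filter, 4 with the replicate block, and 0 to 8 with 1 library left out. For HT+SEA against HT it was 3, and 9 without a filter, 6 with the replicate block, 5 when these groups alone were fitted, and 2 to 7 with 1 library left out. For HT+EA against HT+SEA it was 7, and 12 without a filter, 13 when these groups alone were fitted, and 2 to 9 with 1 library left out. For any difference among the groups it was 2, and 4 with limma-voom, 16 without a filter, and 1 to 7 with 1 library left out. After adjustment and without a filter, 1 member passed for HT against NC, novel_circ_0004584. It was higher in HT (log2 fold change 0.48, SE 0.12, adjusted p = 0.0427, edgeR). Its main fit gave 0.52 (SE 0.31, 95% interval −0.16 to 1.19, adjusted p = 0.997, edgeR), and its HT and NC libraries overlapped. For any difference and without a filter, 2 passed, this one and novel_circ_0039775. Under every other alternative run 0 passed. The main fit tested 4838 circRNAs. The alternative without a filter tested 21914, those with the groups compared alone 3454 to 4013, and those with 1 library left out 5373 to 5554. For these alternatives and the replicate block, the share of all circRNAs called is not given. Their counts therefore do not show whether members shifted more than other circRNAs. The cause of the shifts in the counts was not tested.

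No pairing of the libraries by replicate number was seen in the members. Over 18 same-numbered pairs the correlation of deviations from the group means ran from −0.353 to 0.432. Its median was −0.045, against −0.015 for pairs of other numbers, and 2 of 12 libraries correlated best with their own number. A batch shared by only some libraries was not tested. The 8 named fold changes kept their direction under all 19 alternatives, and calls lost are given with each member. These 8 were picked by their p in the same libraries, and every alternative reuses most of the same counts. The kept direction is therefore no independent support. The members held 25.28% of the counts when the total was taken over the circRNAs that passed the filter, and 21.94% to 22.07% with 1 library left out. The number of members within the first 100 ranks of every library was 67 to 69 with 1 library left out and 62 when libraries were thinned to the smallest total. Ranking by median CPM kept 95 of the 99 members, and ranking by summed counts, by mean log2(CPM + 1), by TMM-scaled CPM or after thinning kept 98. The number of libraries, 3 a group, limits the precision to the intervals given.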

Other observations

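One circRNA just below the limit was listed in an all-or-none manner. At place 115, novel_circ_0018587 had 324, 445 and 397 counts in NC, 213, 446 and 0 in HT, 0, 486 and 0 in HT+EA, and 473, 290 and 0 in HT+SEA. In the 8 libraries where it was listed it was between rank 40 and rank 101, and in the other 4 it was at 0, in 3 of the 4 groups. At place 173, novel_circ_0025811 had 133 to 287 counts in 11 libraries and 0 in HT 3. Both were picked after their values were seen.

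Some libraries of different groups deviated together. The deviations of the 99 members from their medians over libraries (log2 CPM) correlated between HT 3 and HT+SEA 2 (r = 0.547), NC 3 and HT+EA 2 (r = 0.525) and HT 1 and HT+EA 1 (r = 0.521), the 3 highest of 66 pairs, while the median over the pairs was −0.102. In places 101 to 200 the same pairs had r = 0.328, 0.341 and 0.306, over 98 circRNAs listed in every library. There the highest pair was another, NC 1 and HT 1 (r = 0.457), which had r = 0.337 in the members. Other pairs deviated in opposite directions, such as HT 1 and HT+SEA 1 (r = −0.468 in the members and −0.354 in places 101 to 200). These correlations are across circRNAs, which are not independent replicates, and the pairs were picked after the values were seen. The labels give no batch that links these libraries, and the part of this pattern in the group values was not tested.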
